A study of Mus musculus with 4 samples.

Results

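The Ragulator, the Rag GTPases and Rheb are the proteins that bring the kinase complex mTORC1 to the lysosome and switch it on there. They were followed here through their mRNA in reconstituted ovaries (rOvaries) of mice that had or had not received INK128, an inhibitor of the kinase mTOR. The group is a list of gene names whose rule uses no measured value, although it was chosen with earlier results of these data known. It comprises the 5 Ragulator genes Lamtor1, Lamtor2, Lamtor3, Lamtor4 and Lamtor5, the 4 Rag GTPase genes Rraga, Rragb, Rragc and Rragd, and Rheb, that is 10 of the 54021 gene symbols in the count table. All 10 were present in the table.

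An rOvary is a graft that grows under the kidney capsule from an aggregate of primordial germ cells and gonadal somatic cells, which were taken from fetal female gonads of mice in which C57BL/6-actin-GFP males had been crossed to females of C57BL/6. RNA-seq of polyA RNA was available for 4 rOvaries, 2 with INK128 (replicates 1 and 2) and 2 controls without it (replicates 1 and 3), collected 1 month after transplantation. The labels give INK128 as 0.75 µM per g of body weight in the drinking water, whereas the methods of the study state a different figure in another unit, and the 2 could not be reconciled here. Recipients in both groups were bilaterally ovariectomized, young adult, second-generation (G2) Terc-/- females on a C57BL/6 background, so both groups lacked telomerase in the host but not in the cells that made the graft. The comparison therefore asks which mRNAs of the group differed with INK128 in grafts within telomerase-deficient hosts. Whether the 2 libraries of a group came from separate animals is not stated in the labels, so that p-values measure the spread between these libraries, which may be technical. A piece of tissue contains many cell types, and fewer cells of a type cannot be told apart from less RNA per cell.

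The Ragulator is a pentamer that sits on the lysosomal surface. Lamtor1 anchors it to the membrane and wraps around 2 pairs of small roadblock proteins, Lamtor2 with Lamtor3 and Lamtor4 with Lamtor5. The complex holds Rag heterodimers, in which RagA or RagB (Rraga, Rragb) joins RagC or RagD (Rragc, Rragd). When amino acids are plentiful, the Rags recruit mTORC1 to the lysosome, where the GTPase Rheb activates its kinase. Growth factor signals reach Rheb through the TSC complex, which turns it off. In the ovary, mTORC1 is known for its part in the activation of primordial follicles. Rragc and Rragd are also known targets of the MiT/TFE transcription factors (Tfeb, Tfe3 and Mitf), which bind the sequence CACGTG.

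Because of that link, the sequence before the RefSeq start of the genes was searched for CACGTG, which reads the same on both strands. RefSeq windows of 250 bases before the annotated start (build GRCm38.p6) matched 9 of the 10 genes, all but Lamtor3. CACGTG occurred in 5 of the 9 windows, against 1978 of 32851 windows of the same length over all genes (6.02%). The longer form TCACGTGA, which contains it, occurred in 0 of the 9 and in 258 of the 32851 (0.785%). Lamtor4 and Rragb each held 2 copies, which began 120 and 104 bases before the start in Lamtor4 and 127 and 36 bases before it in Rragb. Lamtor1, Rragc and Rheb each held 1 copy, at 68, 112 and 96 bases. The start is that of RefSeq, and by the longer GENCODE models of the same build the whole Rheb window, part of the Lamtor2 window and the last few bases of the Rraga window lie inside the gene. Lamtor2, Lamtor5, Rraga and Rragd held none in these windows. The 3 windows below, each on the + strand and written 5′ to 3′ with CACGTG in capitals, belong to the gene with the largest rise (Lamtor4), the gene called lower (Rragd) and the gene whose level depended on a single control library (Rragb).
Lamtor4, chr5:138255232-138255481: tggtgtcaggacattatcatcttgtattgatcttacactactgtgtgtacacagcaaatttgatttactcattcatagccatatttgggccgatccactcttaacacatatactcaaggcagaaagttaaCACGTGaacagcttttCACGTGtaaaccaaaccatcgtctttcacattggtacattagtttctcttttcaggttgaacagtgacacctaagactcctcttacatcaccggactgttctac
Rragd, chr4:32982748-32982997: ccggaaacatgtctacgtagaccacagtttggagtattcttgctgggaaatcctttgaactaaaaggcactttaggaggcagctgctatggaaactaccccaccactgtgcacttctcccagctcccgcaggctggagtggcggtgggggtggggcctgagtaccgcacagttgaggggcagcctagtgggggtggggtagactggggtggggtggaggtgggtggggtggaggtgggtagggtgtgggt
Rragb, chrX:153139708-153139957: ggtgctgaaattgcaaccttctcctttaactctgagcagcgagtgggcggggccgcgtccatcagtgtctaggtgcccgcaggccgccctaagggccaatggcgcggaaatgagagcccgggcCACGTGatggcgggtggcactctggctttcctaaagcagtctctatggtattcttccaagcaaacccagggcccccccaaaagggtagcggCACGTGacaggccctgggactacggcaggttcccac
A match is a description of the letters. It is not evidence of binding, and a window without a match says nothing about a factor's action on that gene.

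Counts summed to between 19130209 and 23029089 per library, and 3 counts, used as the floor of detection, corresponded to 0.13 to 0.157 CPM (counts scaled to the library total). This floor and the intervals of shares given further on cover counting error only. Over the genes tested, log2 CPM of the 2 INK128 libraries had a Pearson correlation of 0.98 across genes, whereas the 2 control libraries had 0.806. Control replicate 1 stood apart. It held 1021 counts of 4 Y-linked genes against 0 to 2 in the other libraries, although the aggregates came from female gonads, and its 3 Sertoli cell markers (Sox9, Dmrt1 and Dhh) summed to 267 CPM against 25.3 to 45.7 CPM elsewhere. In the other libraries Dhh alone was at 20.9 to 39.3 CPM. Control replicate 3 had 21.8 CPM over 8 oocyte markers, such as Gdf9 and Zp3, against 713 to 967 CPM in the other libraries. Markers of granulosa cells, the defining somatic cells of the follicle, were abundant in all 4 libraries (2711 to 7561 CPM over 7 genes). Because of these differences the log2 fold change of each gene of the group is also given without control replicate 1.

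Levels are given as CPM scaled with TMM factors, which correct the library totals for a few very abundant genes. Differences are log2 fold changes of INK128 over control from the quasi-likelihood test of edgeR, and p-values were adjusted by the Benjamini-Hochberg method over the 11758 genes that averaged more than 10 CPM. To be called higher or lower, a gene needed an adjusted p under 0.05 together with a difference of over 1.5-fold. Of the 10 genes, 9 passed this filter, and Rragb was tested in the wider set of 17631 genes averaging over 1 CPM. The test called 2 of the 9 genes higher, Lamtor2 and Lamtor4, where 3.18% of all genes tested were called higher. It called 1 of the 9 lower, Rragd, where 3.19% were called lower. At an unadjusted p below 0.05, 5 of the 9 were above and 1 was below control, against 17.7% and 18.7% of all genes. Both INK128 libraries lay above both controls in 7 of the 9 genes and below them in 1, against 34.5% and 34.0% of all genes. The median log2 fold change of the 9 genes was 0.60, beside −0.03 over all genes tested. DESeq2 on the same genes called 4 higher (Lamtor1, Lamtor2, Lamtor4 and Rheb) and 1 lower (Rragd), where it called 13.6% and 15.1% of all genes. Without control replicate 1 edgeR called 6 of the 9 higher and 1 lower, where it called 22.7% and 23.2% of all genes, and without control replicate 3 it called 3 higher and 1 lower, where it called 21.2% and 21.4%. Without INK128 replicate 1 it called 0 genes of the whole table (smallest adjusted p = 0.381, with 751 genes above and 774 below control at an unadjusted p below 0.05), and likewise 0 without INK128 replicate 2 (smallest adjusted p = 0.438, with 639 above and 699 below). In each of these fits the lone library of a group is assumed to vary like the libraries of the other group.

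**Figure D1:**
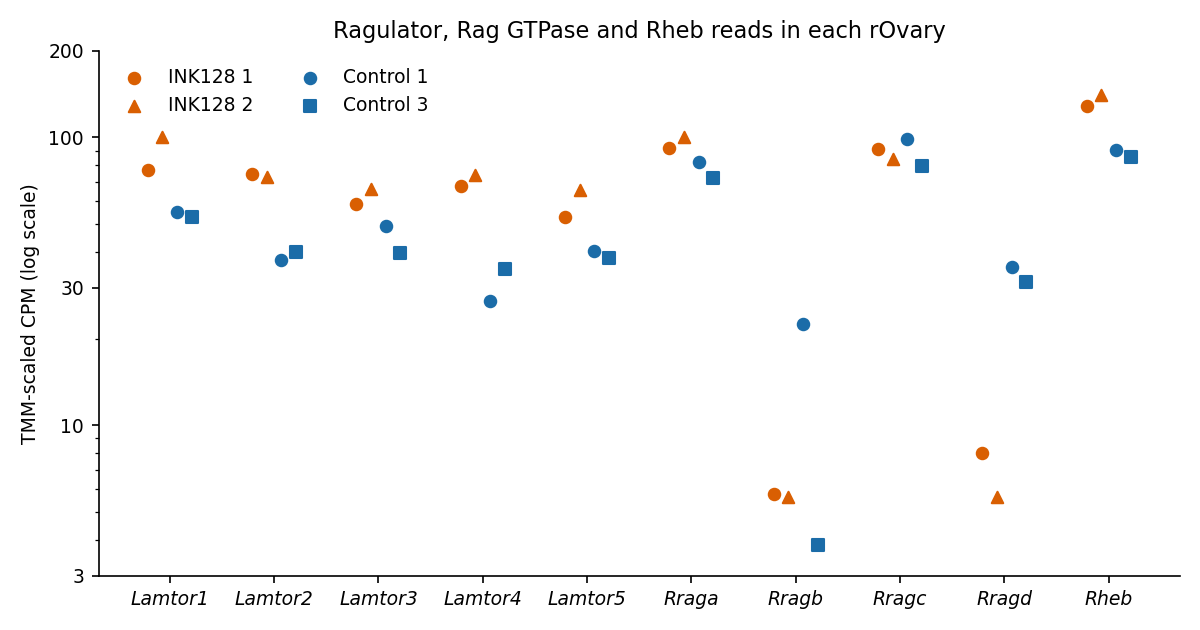
TMM-scaled CPM (log axis) of the 10 genes in each of the 4 libraries, with INK128 in orange and controls in blue. All 5 Lamtor genes, Rraga and Rheb lay higher in both INK128 libraries than in both controls, Rragc overlapped, Rragd was at 5.61 to 8.0 CPM with INK128 and 31.5 to 35.4 CPM in controls, and Rragb was high in control replicate 1 alone.

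Lamtor1 (chr7:101905904-101926675, + strand, mm10), the membrane anchor of the Ragulator, was at 77.0 and 100 CPM with INK128 and at 55.3 and 52.8 CPM in controls. Both INK128 libraries were above both controls, and the 2 INK128 libraries differed from each other by about as much as the nearer of them differed from the controls. The means were 88.7 ± 16.4 CPM (SD, n = 2) and 54.0 ± 1.71 CPM (SD, n = 2), and the log2 fold change of 0.71 (standard error 0.20, 95% interval 0.18 to 1.25) had an adjusted p of 0.0842 in edgeR and of 0.0295 in DESeq2. Without control replicate 1 it was 0.75, with an adjusted p of 0.012 in edgeR. Lamtor1 shares 600 bases of exon with Lrrc51 on the opposite strand, which had 49 to 96 counts, and near-identical processed pseudogenes of Lamtor1 had up to 30 counts per library.

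Lamtor2 (chr3:88549819-88553074, − strand) and Lamtor3 (chr3:137918506-137928900, + strand) encode the first roadblock pair, which is also known as a scaffold of MAP kinase signalling on endosomes. Lamtor2 was at 74.8 and 73.0 CPM with INK128 and at 37.5 and 40.0 CPM in controls. The groups were well separated, with little spread within either. Lamtor2 rose 1.91-fold (log2 fold change 0.93, standard error 0.17, 95% interval 0.50 to 1.37, adjusted p = 0.0496 in edgeR). Its adjusted p was 0.000368 in DESeq2, and without control replicate 1 the log2 fold change was 0.89 (adjusted p = 0.00259 in edgeR). The call was lost in edgeR with relative log expression factors (adjusted p = 0.0512) and with library totals alone (adjusted p = 0.0537). Lamtor3 was at 58.7 and 66.1 CPM with INK128 and at 49.3 and 39.6 CPM in controls. The groups did not overlap, but the gap between them was about as wide as the gap between the 2 controls. Its log2 fold change of 0.49 (95% interval −0.04 to 1.02) did not pass the test (adjusted p = 0.157 in edgeR), whereas it was 0.66 without control replicate 1 (adjusted p = 0.0152 in edgeR) and 0.34 without control replicate 3 (adjusted p = 0.161 in edgeR). The Lamtor3 pseudogene Gm5900, 99.5% identical over the coding sequence, had 1 to 8 counts.

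Lamtor4 (chr5:138255482-138259398, + strand) and Lamtor5 (chr3:107278858-107284082, + strand) encode the second roadblock pair. Lamtor4 was at 67.6 and 74.3 CPM with INK128 and at 26.9 and 34.8 CPM in controls. Every INK128 value was far above every control value, and the difference was the largest rise of the 10 genes. Lamtor4 rose 2.30-fold (log2 fold change 1.20, standard error 0.21, 95% interval 0.64 to 1.76, adjusted p = 0.0489 in edgeR), and it ranked 594th of the 11758 genes from the highest log2 fold change. The adjusted p was 0.000277 in DESeq2, and without control replicate 1 the log2 fold change was 1.03 (adjusted p = 0.00135 in edgeR). This call was also lost in edgeR with relative log expression factors (adjusted p = 0.0508) and with library totals alone (adjusted p = 0.0507). Lamtor5 was at 53.1 and 65.6 CPM with INK128 and at 40.4 and 38.0 CPM in controls. Both INK128 libraries were above both controls, by about the distance that separated them from each other. Its log2 fold change of 0.60 (95% interval 0.08 to 1.11) had an adjusted p of 0.107 in edgeR and of 0.0713 in DESeq2, and without control replicate 1 it was 0.65 (adjusted p = 0.022 in edgeR). With control replicate 3 left out in its place, the log2 fold changes in edgeR were 0.68 for Lamtor1 (adjusted p = 0.0199), 0.98 for Lamtor2 (adjusted p = 0.00158), 1.40 for Lamtor4 (adjusted p = 0.000235) and 0.56 for Lamtor5 (adjusted p = 0.0438, under 1.5-fold).

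Lamtor2, Lamtor4 and Lamtor5 are short, and fold changes in this comparison moved with gene length. Across the 11700 tested genes with an exon length in GENCODE release M21, which share the same 4 libraries, the Spearman correlation of log2 fold change with exon length was −0.465. Exon length was counted as all bases covered by any annotated transcript, and it was 884 bases for Lamtor5, 1218 for Lamtor2, 1302 for Lamtor4, 3215 for Lamtor1 and 4151 for Lamtor3, against a median of 4468 over all genes tested. When edgeR was run with offsets that remove the length trend separately from every library, the log2 fold changes became 0.21 for Lamtor2, 0.48 for Lamtor4, 0.49 for Lamtor1, 0.43 for Lamtor3 and −0.17 for Lamtor5. Length itself depended on the transcripts counted. In the smaller basic set of transcripts of the same annotation, Lamtor1 had 1366 bases and Lamtor3 had 1315, and the correlation across genes was −0.534. With offsets from the basic-set lengths the log2 fold changes were 0.05, 0.35, 0.07, −0.17 and −0.24 in the same order. No gene of the whole table was called in edgeR with either set of offsets. At an unadjusted p below 0.05, edgeR with the first set placed 1427 genes above and 1707 below control, and of the 9 genes 1 above and 1 below. With the basic set it placed 1191 above and 1508 below, and of the 9 genes 0 above and 1 below. What part length plays in the Lamtor values was not tested further. Some cell type markers also lay higher with INK128, in the direction of the Lamtor genes and Rheb. Of 8 oocyte markers 7 were above both controls in both INK128 libraries, with sums of 967 and 713 CPM against 716 and 21.8 CPM in controls. Of 4 erythroid (haemoglobin) markers 3 were, with sums of 95.4 and 90.02 CPM against 11.1 and 54.4 CPM. The oocyte sum of INK128 replicate 2 was below that of control replicate 1. Over all genes tested 34.5% lay above both controls in this way. So did 3 of 7 granulosa, 1 of 5 theca and luteal and 0 of 3 Sertoli markers, and 1 theca and luteal marker lay below both. Most kidney and immune markers lay below, as given further on. The part of any of these cells in the Lamtor and Rheb values was not tested.

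**Figure D2:**
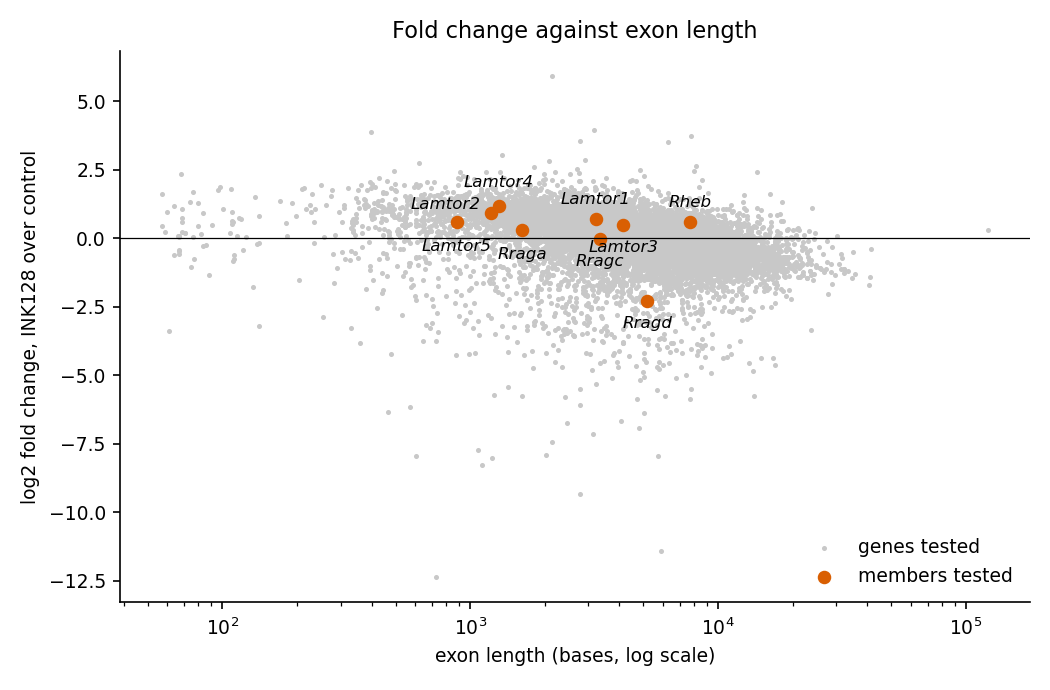
Log2 fold change of INK128 over control (edgeR) against exon length in bases (log axis) for the 11700 tested genes with a length, in grey, with the 9 tested genes of the group in orange. Shorter genes lie higher on average (Spearman correlation −0.465), and Rragd lies far below the other genes of the group.

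**Figure D3:**
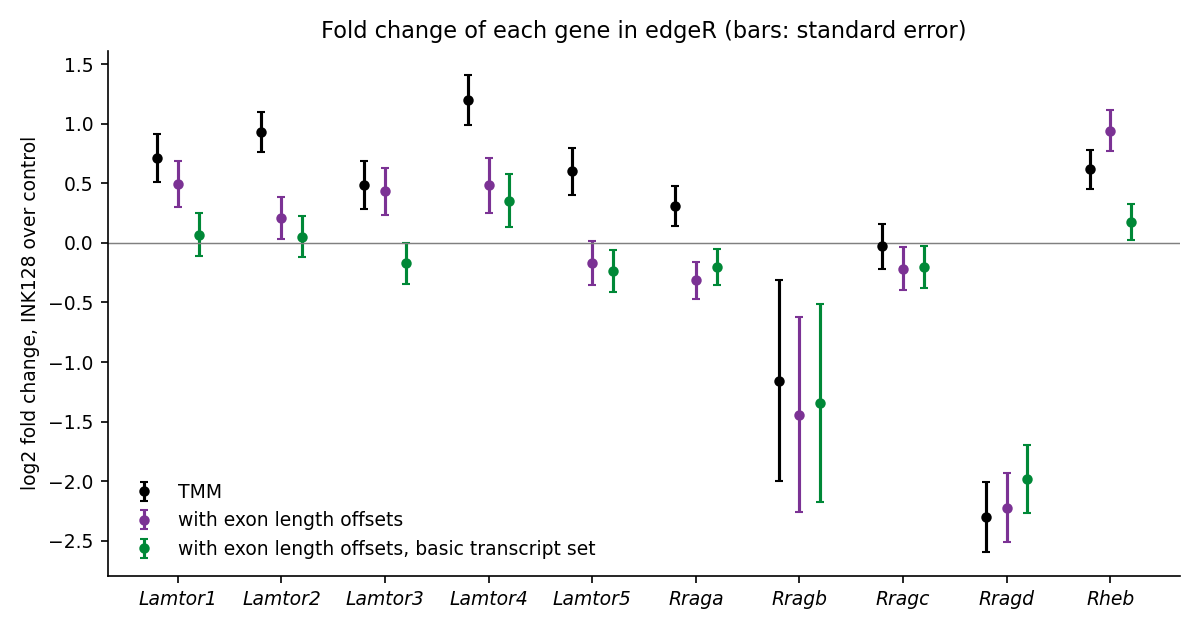
Log2 fold change of each of the 10 genes in edgeR with TMM scaling (black), with exon length offsets (purple) and with offsets from the basic transcript set (green), where bars are the standard error. The 5 Lamtor genes move toward or below 0 with the offsets, while Rragd is at −2.30, −2.22 and −1.98.

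To compare genes with each other, counts were divided by exon length and scaled to the same total in every library (TPM). With INK128, Lamtor5 averaged 135 ± 19.2 TPM (SD, n = 2), Lamtor2 122 ± 2.90 TPM, Rraga 119 ± 6.46 TPM and Lamtor4 109 ± 6.61 TPM. Of these neighbours Lamtor5, Lamtor2 and Rraga overlapped in their library values, and Lamtor4 lay just below Rraga. Lamtor1 (55.3 ± 9.90 TPM) and Rragc (52.6 ± 3.21 TPM) also overlapped each other and were followed by Rheb (35.0 ± 1.89 TPM), Lamtor3 (30.1 ± 2.36 TPM), Rragb (5.04 ± 0.115 TPM) and Rragd (2.64 ± 0.671 TPM). In controls Rraga (130 ± 10.2 TPM) and Lamtor5 (121 ± 3.96 TPM) were highest and overlapped. Lamtor2 (86.8 ± 5.02 TPM) came next, and Rragc (72.9 ± 10.3 TPM) and Lamtor4 (64.7 ± 12.4 TPM) overlapped each other. Lamtor1 was at 45.8 ± 0.943 TPM, and Rheb (31.0 ± 0.812 TPM) and Lamtor3 (29.2 ± 4.18 TPM) overlapped. Rragd (17.6 ± 1.25 TPM) and Rragb (15.8 ± 15.7 TPM) overlapped too, since Rragb differed widely between the 2 controls. The order rests on the transcripts that are counted. With the basic set Rheb averaged 118 TPM with INK128 and 107 TPM in controls, and Lamtor3 74.5 and 73.5 TPM.

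The proteins of the Ragulator occur in equal numbers, but their mRNAs did not. The highest of the 5 Lamtor TPM values was 4.35 and 4.66 times the lowest in the INK128 libraries and 3.84 and 4.50 times in controls, and these ranges overlapped. With lengths from the basic set these ratios were 2.28 and 1.98 with INK128 and 1.66 and 1.81 in controls, so that both their size and their overlap rested on the transcripts counted. The 5 genes summed to 426 and 476 TPM with INK128 and to 341 and 353 TPM in controls. Within that sum Lamtor4 held 24.5% and 23.9% with INK128 and 16.4% and 20.8% in controls, so that its share was above both controls in both INK128 libraries. The share of Lamtor5 was below them, with 28.4% and 31.1% against 36.2% and 33.4%. That of Lamtor3 was below them too, with 6.68% and 6.69% against 9.42% and 7.43%, or 13.1% and 13.2% against 18.3% and 14.6% with the basic set. With the basic set the shares were 22.7% and 22.2% against 14.9% and 19.3% for Lamtor4, and 17.7% and 19.4% against 22.2% and 20.8% for Lamtor5, with the same order of the groups. The share of Lamtor2 overlapped, with 29.0% and 25.1% against 24.4% and 25.6%. With 2 libraries against 2, an exact two-sided permutation test of such a share cannot give a p below 0.333, and none is given.

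Among the Rag GTPases, Rragd fell, Rraga and Rragc did not pass the test, and Rragb was set by 1 control library. Rraga (chr4:86575668-86577285, + strand) was at 91.7 and 99.9 CPM with INK128 and at 82.1 and 72.4 CPM in controls. The groups did not overlap, and the gap between them was no wider than that between the 2 controls. Its log2 fold change was 0.31 (95% interval −0.14 to 0.76, adjusted p = 0.251 in edgeR), and with length offsets it turned to −0.32, or to −0.20 with the basic set. It was 0.40 without control replicate 1 (adjusted p = 0.0862 in edgeR) and 0.22 without control replicate 3 (adjusted p = 0.348 in edgeR). Rragc (chr4:123917446-123936997, + strand) was at 91.1 and 84.3 CPM with INK128 and at 99.0 and 79.7 CPM in controls. The INK128 values lay between the 2 control values. The log2 fold change was −0.03, with a 95% interval from −0.52 to 0.47 (adjusted p = 0.926 in edgeR), and it was 0.14 without control replicate 1 (adjusted p = 0.547 in edgeR) and −0.17 without control replicate 3 (adjusted p = 0.455 in edgeR). On the TPM scale, where the shift between short and long genes enters the total, Rragc was at 54.9 and 50.4 TPM with INK128 and at 80.2 and 65.6 TPM in controls, and the groups did not overlap.

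Rragb (chrX:153139981-153171943, + strand), the paralogue of Rraga, was at 5.74 and 5.61 CPM with INK128 (107 and 122 counts) and at 22.4 and 3.84 CPM in controls (507 and 91 counts). Only control replicate 1 was high, and the other 3 libraries lay close together. The log2 fold change was −1.16 with a standard error of 0.84 (95% interval −3.36 to 1.05, adjusted p = 0.379 in edgeR). Without control replicate 1 it turned to 0.62 (adjusted p = 0.217 in edgeR), and without control replicate 3 it was −1.93 (adjusted p = 7.85e-05 in edgeR). Control replicate 1 is the library with 1021 Y-linked counts and with Sox9 at 148 CPM and Dmrt1 at 30.5 CPM, where Sox9 was at 4.43 to 6.21 CPM and Dmrt1 at 0 to 0.138 CPM in the others. The part of those cells in the Rragb value was not tested. Of the summed TPM of Rraga and Rragb, Rragb made up 4.30% (95% exact binomial interval 3.53 to 5.18) and 3.87% (3.22 to 4.61) with INK128, and 16.4% (15.1 to 17.8) and 3.66% (2.95 to 4.48) in controls. The interval of control replicate 3 overlapped those of both INK128 libraries, and that of control replicate 1 did not.

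Rragd (chr4:32983037-33022180, + strand), the paralogue of Rragc and a gene in which variants are known to cause an inherited kidney tubule disease, had the largest difference of the 10 genes. It was at 8.0 and 5.61 CPM with INK128 (149 and 122 counts) and at 35.4 and 31.5 CPM in controls (800 and 748 counts). The 2 controls were alike and lay far above both INK128 libraries. Rragd was 4.92-fold lower with INK128 (log2 fold change −2.30, standard error 0.29, 95% interval −3.07 to −1.52, adjusted p = 0.0464 in edgeR, and 2.15e-08 in DESeq2). It exceeded the filter of 10 CPM through the control libraries alone, so that the fact that it was called carries no weight as a count. In the wider set of 17631 genes, where it did not depend on that filter, its log2 fold change was −2.24, its adjusted p was 0.0555 in edgeR, which called 0 genes there (2664 above and 3133 below control at an unadjusted p below 0.05, while DESeq2 called 1791 higher and 2402 lower), and it ranked 1172nd from the lowest log2 fold change. The log2 fold change was −2.22 without control replicate 1 (adjusted p = 0.000128 in edgeR) and −2.38 without control replicate 3 (adjusted p = 6.12e-05 in edgeR). With length offsets it was −2.22, or −1.98 with the basic set, and missed the threshold (adjusted p = 0.0749 and 0.093 in edgeR). Under all scalings run, Rragd remained negative.

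Most marker genes of kidney and immune cells lay, like Rragd, below the controls with INK128. Of 12 kidney markers, 10 were lower in both INK128 libraries than in both controls, and their summed level was 57.0 and 134 CPM with INK128 and 516 and 1210 CPM in controls. The tubule marker Slc12a1 had 0 counts in INK128 replicate 2. Of 12 immune markers, 9 were lower in both INK128 libraries, and the sums were 435 and 395 CPM against 849 and 1245 CPM. Of the genes averaging more than 10 CPM, 34.0% lay below both controls in both INK128 libraries. In control replicate 1 the kidney sum was 516 CPM and Rragd was at 35.4 CPM. In control replicate 3 the kidney sum was 1210 CPM and Rragd was at 31.5 CPM. The part of kidney and immune cells in the Rragd value was not tested.

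Per length, the balance within the RagC and RagD pair differed between groups beyond the spread of the libraries. Rragd made up 5.37% (95% exact binomial interval 4.55 to 6.29) and 4.12% (3.43 to 4.91) of the summed TPM of Rragc and Rragd with INK128, and 18.8% (17.6 to 20.04) and 20.3% (18.99 to 21.8) in controls. No INK128 interval overlapped a control interval. Put as a ratio, Rragc was 17.6 and 23.3 times Rragd with INK128 and 4.33 and 3.91 times in controls. With lengths from the basic set the shares of Rragd were 4.22% and 3.23% against 15.2% and 16.5%, with the same order. The coding sequences of Rragc and Rragd were 74.4% identical over 1170 aligned bases, with no identical run above 20 bases, and those of Rraga and Rragb were 82.7% identical over 939 bases, with no run above 26 bases.

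**Figure D4:**
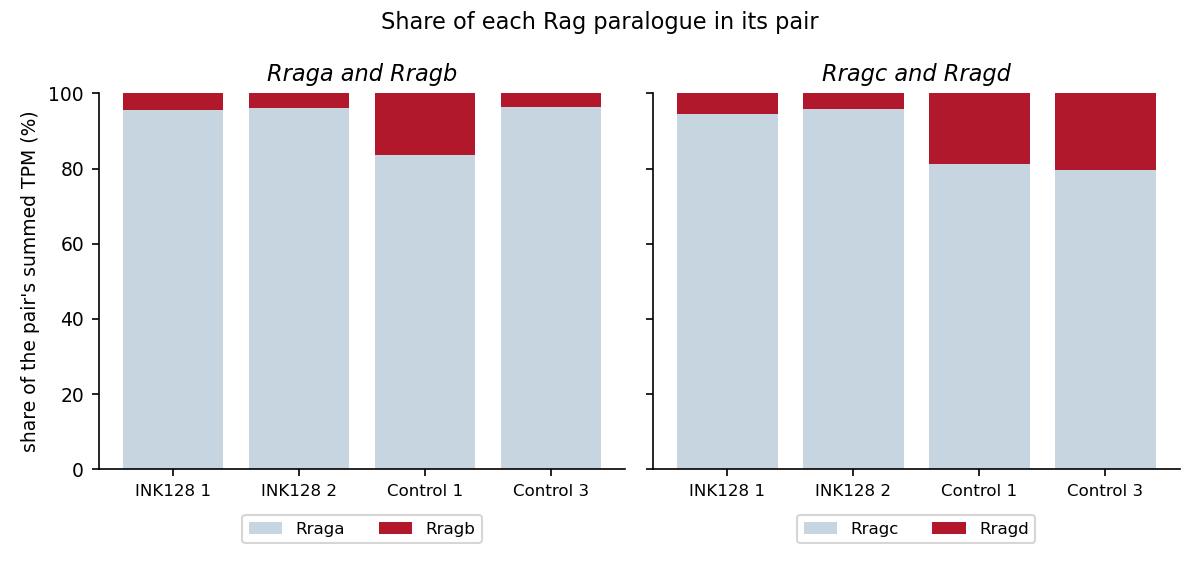
Share of each paralogue in the summed TPM of its pair (%), for Rraga with Rragb on the left and Rragc with Rragd on the right, in each of the 4 libraries. Rragd holds 4.12% and 5.37% with INK128 against 18.8% and 20.3% in controls, and Rragb is above 4.30% in control replicate 1 alone.

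Rheb (chr5:24802823-24842624, − strand), the GTPase that activates mTORC1 directly, was at 129 and 140 CPM with INK128 and at 90.1 and 85.5 CPM in controls. Both groups were tight and did not overlap. The means were 135 ± 8.14 CPM (SD, n = 2) and 87.8 ± 3.26 CPM (SD, n = 2), a 1.53-fold difference (0.62 on the log2 scale, standard error 0.16, 95% interval 0.19 to 1.04). Its adjusted p was 0.0749 in edgeR and 0.0122 in DESeq2, and the log2 fold change was 0.66 without control replicate 1 (adjusted p = 0.0147 in edgeR) and 0.58 without control replicate 3 (adjusted p = 0.028 in edgeR, under 1.5-fold). Its annotated exon length was 7721 bases in the full set and 1784 bases in the basic set. The length-adjusted log2 fold change moved with this choice and was 0.94 with the full set (adjusted p = 0.0852 in edgeR) and 0.17 with the basic set (adjusted p = 0.531 in edgeR). The related gene Rhebl1 was at 16.5 and 17.8 CPM with INK128 and at 31.3 and 10.2 CPM in controls. The INK128 values lay between those of the controls, and its log2 fold change of −0.27 (adjusted p = 0.743 in edgeR) turned to 0.75 without control replicate 1 (adjusted p = 0.0398 in edgeR). Rhebl1 shares 546 bases with Dhh, which had 2000 counts in control replicate 1 and 495 to 855 counts elsewhere. Rhebl1 was chosen for description after its values were seen.

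Besides the 10 genes, 39 genes whose proteins act on or bind the Ragulator, the Rags or Rheb were examined in 5 lists. Of these, 35 exceeded a mean CPM of 10, and edgeR called 2 of these higher and none (0) of them lower. Over all genes tested 3.18% were called higher and 3.19% lower. When p was not adjusted, 8 of the 35 were above and 6 below control at a p below 0.05, beside 17.7% and 18.7% of all genes, and DESeq2 called 4 higher and 6 lower, beside 13.6% and 15.1%. The counts at an unadjusted p and those of DESeq2 were near the shares over all genes. The median log2 fold change of the 35 was −0.11. Both genes called higher, Bloc1s1 and Kxd1, encode subunits of BORC, a complex that binds the Ragulator and moves lysosomes along microtubules. Bloc1s1 was at 81.5 and 92.0 CPM with INK128 and at 38.4 and 40.7 CPM in controls (log2 fold change 1.13, standard error 0.17, adjusted p = 0.0464 in edgeR). Kxd1 was at 947 and 888 CPM with INK128 and at 421 and 427 CPM in controls (log2 fold change 1.11, standard error 0.17, adjusted p = 0.0464 in edgeR). In both genes the 2 groups were far apart, and without control replicate 1 the values were 1.09 and 1.10. With length offsets Bloc1s1, with 1288 bases of exon, was at 0.42 (adjusted p = 0.215 in edgeR) and Kxd1 at 0.88 (adjusted p = 0.0902 in edgeR), and with the basic set they were at 0.30 and 0.80. Kxd1 shares 224 bases with Fkbp8 on the opposite strand, and Bloc1s1 shares 720 bases with Rdh5 on the same strand, so that reads could have been assigned to either gene. All 8 BORC genes had a positive log2 fold change with TMM scaling, although Borcs5 (−0.13), Borcs8 (−0.47), Bloc1s2 (−0.0042) and Snapin (−0.31) turned negative with length offsets. The median of the list was 0.56, and it became 0.04 with length offsets and 0.07 with the basic set. Snapin, the lowest of the 8, was at 53.7 and 83.8 CPM with INK128 and at 61.5 and 63.0 CPM in controls, with overlapping groups (log2 fold change 0.14, adjusted p = 0.711 in edgeR).

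The sensors and Rag regulators were the list that lay lowest. They include the leucine sensors Sesn1, Sesn2 and Sesn3, the arginine sensors Castor1 and Castor2, the S-adenosylmethionine sensor Bmt2 (Samtor), the lysosomal transporter Slc38a9, and Flcn with its partners Fnip1 and Fnip2, which activate RagC and RagD. Of 12 genes 10 exceeded a mean CPM of 10, and all 10 had a negative log2 fold change with TMM scaling, beside 6038 of all 11758 genes, although Slc38a9 turned to 0.24 with length offsets. The list had a median of −0.85 that was −0.64 with length offsets and −0.39 with the basic set. In edgeR 0 of the 10 were called lower, 4 were below control at an unadjusted p below 0.05 (18.7% of all genes), and DESeq2 called 4 lower (15.1% of all genes), which were Sesn2, Castor2, Bmt2 and Fnip1, named here after their values were seen. Castor2 was at 26.6 and 26.0 CPM with INK128 and at 53.7 and 46.7 CPM in controls, with groups well apart (log2 fold change −0.93, standard error 0.19, adjusted p = 0.0542 in edgeR). Its log2 fold change was −0.62 with length offsets and −0.37 with the basic set. Sesn2 was at 15.2 and 19.5 CPM against 87.8 and 26.8 CPM, where control replicate 1 alone was far above the rest. Its log2 fold change was −1.72 (adjusted p = 0.121 in edgeR), and −0.63 without that library (adjusted p = 0.0633 in edgeR). The log2 fold change of Fnip1 was −0.99 (adjusted p = 0.103 in edgeR) and that of Bmt2 was −0.79 (adjusted p = 0.0955 in edgeR). The ubiquitin ligase gene Rnf152, with a mean CPM below 10, was at 1.72 and 1.01 CPM with INK128 and at 2.26 and 13.2 CPM in controls. Control replicate 3 alone was high, and the log2 fold change was −2.45 with a standard error of 0.96 (adjusted p = 0.158 in edgeR). It was −0.68 without that library (adjusted p = 0.366 in edgeR) and −3.23 without control replicate 1 (adjusted p = 2.58e-05 in edgeR). For Castor1, also below 10 CPM, the log2 fold change was 0.11 (adjusted p = 0.849 in edgeR) with overlapping groups, and its sign turned with library totals alone (−0.07) and with length offsets (−0.31).

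GATOR and KICSTOR, the complexes that restrain or relieve the Rags in response to amino acids, were spread on both sides of 0. Of their 12 genes 11 exceeded a mean CPM of 10, with 5 positive and 6 negative log2 fold changes, a median of −0.04, and 0 called by edgeR in either direction. At an unadjusted p below 0.05, 4 were above and 1 was below control (17.7% and 18.7% of all genes), and DESeq2 called 2 higher (Nprl3 and Sec13, named after their values were seen) and 1 lower (13.6% and 15.1% of all genes). Kptn, a KICSTOR subunit, had the highest value of the list, with 20.5 and 22.4 CPM against 8.59 and 13.5 CPM (log2 fold change 0.96, standard error 0.33, adjusted p = 0.113 in edgeR). The groups did not overlap. The symbol BC048403 in the table is an older name of the KICSTOR gene Kics2.

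The TSC complex turns Rheb off, and its 2 main subunits lay on opposite sides of 0. Tsc2, its GTPase-activating subunit, was at 122 and 123 CPM with INK128 and at 89.2 and 88.2 CPM in controls (log2 fold change 0.47, standard error 0.15, adjusted p = 0.109 in edgeR). Tsc1, which stabilises Tsc2, was at 22.1 and 21.3 CPM with INK128 and at 34.4 and 46.8 CPM in controls (log2 fold change −0.90, standard error 0.24, adjusted p = 0.0755 in edgeR, and 0.0201 in DESeq2). The groups were separate in both genes, with the wider spread in the controls of Tsc1. With length offsets Tsc1 was at −0.36 and Tsc2 at 0.90, and with the basic set they were at −0.31 and 0.95. Of the 4 genes of this list, which includes Rhebl1, 1 was above and 1 below control at an unadjusted p below 0.05 (17.7% and 18.7% of all genes), edgeR called 0, DESeq2 called 1 lower (Tsc1, beside 15.1% of all genes), and the median was 0.07.

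Of the MiT/TFE factors, Tfeb and Tfe3 exceeded a mean CPM of 10, had overlapping groups and a median log2 fold change of −0.09. Tfe3 was at 61.2 and 61.5 CPM with INK128 and at 74.3 and 55.5 CPM in controls (log2 fold change −0.08, 95% interval −0.63 to 0.47, adjusted p = 0.798 in edgeR). For these 2 genes edgeR and DESeq2 called 0, and 0 had an unadjusted p below 0.05. Mitf, which was tested in the wider set of genes averaging over 1 CPM, was at 4.35 and 5.01 CPM with INK128 and at 13.5 and 9.57 CPM in controls. Its groups did not overlap, with a difference of −1.24 on the log2 scale (standard error 0.36, adjusted p = 0.0944 in edgeR and 0.0384 in DESeq2).

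**Figure D5:**
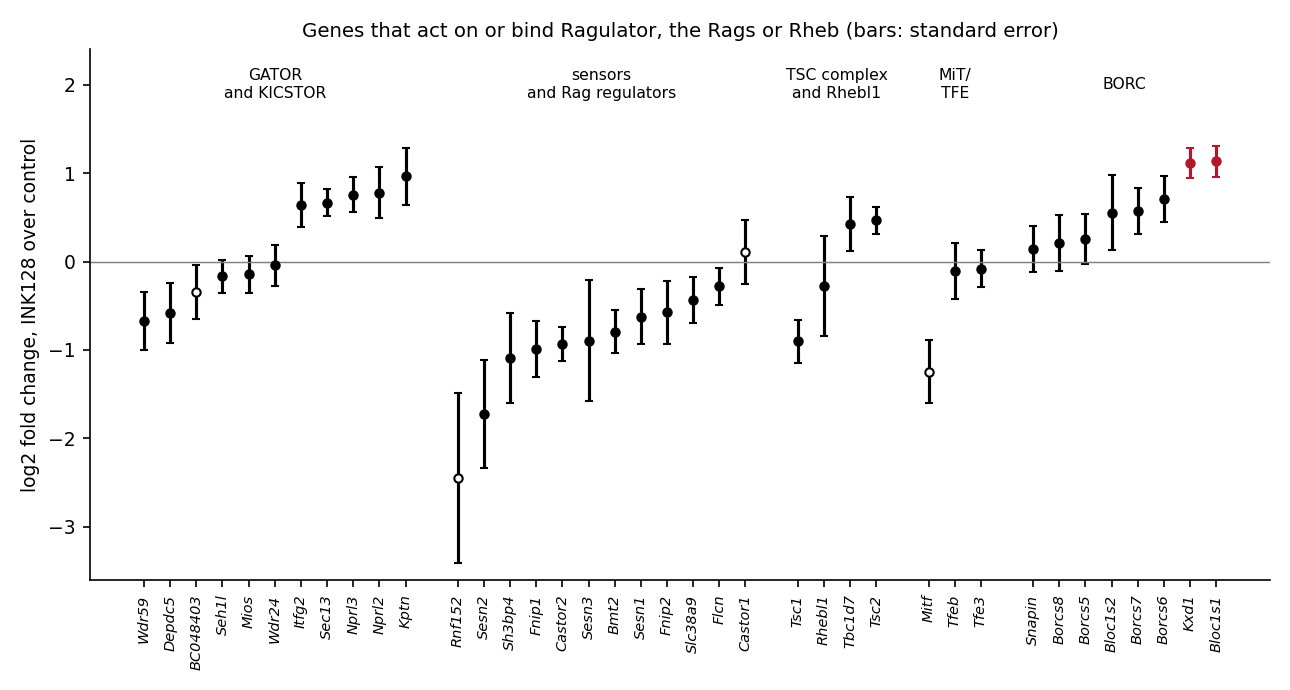
Log2 fold change of INK128 over control in edgeR, with standard error bars, for genes of the 5 lists, with 1 of the 39 not shown. Red marks the 2 genes called higher (Kxd1 and Bloc1s1), and open circles mark genes that were tested in the wider set averaging over 1 CPM. With this TMM scaling the sensors and Rag regulators lie below 0 except Castor1, and the BORC genes lie above 0, where Snapin turned to −0.31 and Slc38a9 to 0.24 with length offsets.

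To find genes with the most similar pattern, log2 CPM was centred on the mean of the 4 libraries, and the root mean square distance to the mean profile of the 5 Lamtor genes was taken for the genes tested, leaving out the group itself. The nearest were Tmem222 (distance 0.0209), Mrpl46 (0.0218) and Pqbp1 (0.0223), over 4 libraries. Tmem222, for example, was at 60.0 and 66.1 CPM with INK128 and at 36.0 and 36.1 CPM in controls. The nearest to Rheb were Paf1 (0.0086), Ube2r2 (0.0137) and Mterf3 (0.0201), and Paf1 was at 78.2 and 86.0 CPM with INK128 and at 54.2 and 52.0 CPM in controls. With 4 libraries and so many genes, close matches of this kind may be found for many profiles, which was not tested.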

How the data were processed

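RNA of 4 rOvaries was sequenced with the NEBNext Ultra kit. Per the labels and the methods of the study, Trimmomatic was used for trimming, HISAT2 for alignment to mm10 and featureCounts for counting on an annotation called RefGene, and the deposited values are raw counts of reads for each symbol, made by the authors with no normalization and no pooling. Tool versions and the strand setting are not given in the sources used here. Table columns were matched to libraries by title, and groups came from the treatment labels. Depth was 19130209 to 23029089 counts, and a floor of 3 counts was set.

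From these counts, CPM, TMM factors and quasi-likelihood F-tests (INK128 against control, no covariates) were computed with edgeR 4.0.16 in R 4.3.3 over the 11758 genes that averaged more than 10 CPM. Benjamini-Hochberg adjustment covered all of them, and the threshold on adjusted p (0.05) and on fold change (1.5) followed the study's methods. Standard errors were derived from F. The 17631 genes averaging over 1 CPM served for genes below the filter. TPM used exon lengths of GENCODE M21, which held 53447 of the symbols. Likeness of pattern used log2 CPM with a pseudocount of 0.5. Coding sequences were compared with BLAST 2.17.0 and Biopython 1.88. DESeq2 1.42.0 and limma voom 3.58.1, other scalings (relative log expression, library totals, exon length offsets with a lowess span of 0.3), filters, thresholds and leaving out each library were alternatives. Scripts were tested on simulated data. The genes of the group and the lists were chosen with earlier results of these data known. Named from each list were the genes called and those with the highest and lowest fold change, and further names are marked in the text as chosen after their values were seen. Values of some genes that this rule would name are not reported here.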

Additional observations from a re-analysis of the deposited data

How the results depend on the processing

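With 2 libraries per group, calls depended on the processing more than directions did. No paired analysis was possible because the groups share only replicate number 1. Of the 9 genes of the group over a mean CPM of 10, edgeR called 2 higher, against 4 with DESeq2 (13.6% of all genes) and 4 at an adjusted p below 0.1. No share over all genes is given at that limit of 0.1, so that the count there cannot be weighed. The count was 0 with limma voom, 0 with relative log expression factors, 0 with library totals alone, 0 with exon length offsets, 0 with offsets from the basic transcript set (chosen after seeing the data) and 0 with a mean CPM above 1. Over the whole table limma voom, both offsets and the filter at a mean CPM of 1 called 0 genes, so that their counts say nothing about the group, while relative log expression factors called 360 higher and 378 lower and library totals 290 and 580. Leaving out libraries gave 0 (either INK128 library) to 6 (control replicate 1, where 22.7% of all genes were called higher). The count called lower was 1, and it was 0 with limma voom, 0 with exon length offsets, 0 with offsets from the basic set and 0 with a mean CPM above 1. It was 0 without either INK128 library and 1 without either control, besides Rragb, outside the 9, at an adjusted p of 7.85e-05 in edgeR without control replicate 3. At an unadjusted p below 0.05, limma voom placed 5 of the genes above and 1 below control, beside 2151 and 1828 of all 11758 genes. For the pathway genes, too, no share over all genes is given at an adjusted p below 0.1. None is given with CPM above 10 in at least 2 libraries or with at least 1 count, so that these counts cannot be weighed. Counts without a control library are to be read beside the shares of all genes called in those fits, given in the Results. Of the pathway genes 2 were called higher, against 4 with DESeq2, 4 at an adjusted p below 0.1, 0 with limma voom, 0 with exon length offsets, 0 with offsets from the basic set, 0 with a mean CPM above 1, and 0 (without either INK128 library) to 8 (without control replicate 1) on leaving out libraries. Of them 0 were called lower, against 6 with DESeq2, 4 at an adjusted p below 0.1, 1 with CPM above 10 in at least 2 libraries, 1 with at least 1 count, and 0 (without either INK128 library) to 10 (without control replicate 3).

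The median log2 fold change of the 9 genes tested was 0.60. It was 0.48 with library totals alone, where the median of all genes was −0.15, 0.21 with exon length offsets, −0.17 with offsets from the basic set, and 0.43 (without INK128 replicate 2) to 0.66 (without INK128 replicate 1) on leaving out libraries. Genes named by rule turned their sign as follows, and apart from the offsets, which remove a trend with length by construction, the cause was not tested. Exon length offsets gave −0.17 for Lamtor5, −0.32 for Rraga, −0.31 for Castor1, 0.33 for Tfe3 and −0.31 for Snapin, and further list genes, such as Mios (0.084) and Tfeb (0.023), turned too. Offsets from the basic set gave −0.17 for Lamtor3, −0.24 for Lamtor5, −0.20 for Rraga, −0.32 for Castor1 and −0.25 for Snapin. Library totals alone gave −0.066 for Castor1. Rragc was at 0.026 with a mean CPM above 1 and at 0.012 with at least 1 count. On leaving out libraries the values ranged from −1.93 to 0.62 for Rragb, from −0.17 to 0.14 for Rragc, from −0.13 to 0.39 for Castor1, from −0.87 to 0.75 for Rhebl1, from −0.27 to 0.14 for Tfe3 and from −0.22 to 0.42 for Snapin. Without control replicate 1 the values of other named genes were −0.83 for Castor2, −1.20 for Fnip1, −0.64 for Bmt2, 0.68 for Kptn, −1.11 for Tsc1, 0.48 for Tsc2 and −0.98 for Mitf. Lamtor1, Lamtor2, Lamtor4, Rheb and Rragd kept their direction under all alternatives run, with Rragd from −2.59 to −1.98. With offsets from the basic set, however, the values were as low as 0.07 for Lamtor1, 0.05 for Lamtor2, 0.35 for Lamtor4 and 0.17 for Rheb.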
